A study of Homo sapiens with 6 samples.

Results

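Chemokines are small secreted proteins that guide leukocytes along concentration gradients, and they act through receptors on the surface of the migrating cell. In solid tumours they are best known for drawing monocytes out of blood, where the cells mature into tumour macrophages. The receptor CCR2 marks classical inflammatory monocytes, and CX3CR1 marks patrolling monocytes and many resident macrophages. The genes described here are 8 chemokines (Ccl2, Ccl5, Ccl7, Ccl8, Cxcl9, Cxcl10, Cxcl12 and Cx3cl1) and the 2 monocyte receptors Ccr2 and Cx3cr1. They were taken by mouse Ensembl gene ID from a list chosen with earlier results of these data known. All 10 were found among the 77134 rows of the deposited table.

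The study grew human A549 lung adenocarcinoma cells under the skin of BALB/c nude mice, hosts that have no thymus and therefore few mature T cells but keep monocytes, macrophages and natural killer cells. Cells of the control group carried the lentiviral vector pLV-CMV-EGFP-Neo, and cells of the other group carried the same vector with HIF1A-AS3, an antisense RNA of the HIF1A locus, under the CMV promoter. Both groups therefore express EGFP and the neomycin resistance gene, both come from stably infected lines, and the change was made in the tumour cells and not in the host. Each group has 3 tumours with 1 library of total RNA each. Age and sex of the mice are not given in the labels, nor is it said that each tumour came from a separate mouse, so the p-values reflect only how much these tumours varied, which may be technical in part.

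The table counts RNA on mouse genes, so each value is host RNA together with any tumour cell RNA alike enough to be assigned to the mouse gene. Libraries held 4167784 to 4769157 estimated counts. Levels are given in CPM, counts scaled to a common library size, with TMM factors over the genes tested. The floor set for low counts, 3 counts, stands for 0.632 to 0.852 CPM. Overexpression tumour 1 stood apart, with the fewest genes detected (17356, against 18753 to 19010 in the others) and a TMM factor of 0.742, against 1.02 to 1.10. Without transcript lengths, levels were compared between tumours only, never between genes. A bulk level cannot tell fewer cells of a type from less RNA per cell. Markers of host cell types were not analysed here, because the table pairs no ID with a symbol; the symbols of the 10 genes come with the list of IDs.

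The comparison of overexpression with control tumours asks how host chemokine expression differed when the tumour cells carried more HIF1A-AS3, in a study whose title concerns macrophage inactivation. Of the 9 genes with enough counts to be tested, 0 passed an adjusted p of 0.05 in edgeR's quasi-likelihood test with Benjamini-Hochberg adjustment over 12637 genes, where 0.0158% of all genes tested passed. DESeq2 and limma-voom also called 0 of them. At an unadjusted p below 0.05 there were 4 in edgeR (Cxcl9, Ccl8, Ccl7 and Cxcl10), all with a negative fold change, against 6.29% of all genes in either direction and 2.71% in the negative direction. For 3 of the 4, controls 1 and 2 stood far above the other 4 tumours while control 3 lay among the overexpression tumours.

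The widest pattern belonged to the ligands of CXCR3, a receptor of activated T cells and natural killer cells. Cxcl9 (ENSMUSG00000029417.10), a chemokine induced by interferon gamma, had 355, 944 and 13 counts in controls 1, 2 and 3, which is 76.8, 214 and 2.79 CPM. Overexpression tumours 1, 2 and 3 had 14, 19 and 3 counts, or 3.98, 4.0 and 0.690 CPM. Control 3 was thus below overexpression tumours 1 and 2, and the groups overlapped. The counting intervals of control 3 (95% Poisson interval 1.49 to 4.78 CPM) and of those 2 tumours (2.17 to 6.67 and 2.41 to 6.25 CPM) also overlapped, so their order was not resolved at this depth. Controls averaged 97.7 ± 107 CPM and overexpression tumours 2.89 ± 1.91 CPM (SD, n = 3 each). The edgeR fit gave a log2 fold change of -5.08 (standard error 1.40, 95% interval -8.36 to -1.79, adjusted p = 0.70). Without control 2 it was -3.78 (adjusted p = 0.82 in edgeR).

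Cxcl10 (ENSMUSG00000034855.14), the other CXCR3 ligand on the list and induced by both type I and type II interferon, gave the same order among controls. It had 51.5, 129 and 8.01 estimated counts in controls 1, 2 and 3 (11, 29.2 and 1.72 CPM) and 14, 15 and 3 in overexpression tumours 1, 2 and 3 (3.98, 3.16 and 0.690 CPM). Control 3 again lay inside the range of the overexpression tumours. Overexpression tumour 3 held 3 counts of each gene, with an interval of 0.142 to 2.02 CPM. For Cxcl10 this interval covered the level of control 3 (interval 0.742 to 3.39 CPM), so their order was not resolved. For Cxcl9 it ended below the 2.79 CPM of control 3, though the 2 intervals overlapped (1.49 to 4.78 CPM in control 3), and the order was not tested. Group means were 14.0 ± 14.0 and 2.61 ± 1.71 CPM (SD, n = 3 each), and edgeR gave a log2 fold change of -2.43 (standard error 0.97, adjusted p = 0.70). Without control 2 the log2 fold change was -1.29.

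The balance between these CXCR3 ligands also differed between tumours. The ratio of Cxcl9 to Cxcl10 counts, which needs no scaling by depth, was 6.96 and 7.32 in controls 1 and 2 and 1.62 in control 3. It was 1.00, 1.27 and 1.00 in overexpression tumours 1, 2 and 3, the last from 3 counts of each gene. Cxcl9 thus made up more of the pair in controls 1 and 2 than in any other tumour. Across the 6 tumours the pair gave Pearson's r = 0.98 (exact permutation p = 0.0028, adjusted 0.01) and Spearman's rho = 0.94 (exact permutation p = 0.017, adjusted 0.08). The tumours fall into separate sets in Cxcl9, so the gap between these sets enters the pooled values. Without controls 1 and 2, the tumours farthest from the median of Cxcl9, r was 0.95, with overexpression tumour 3 at 3 counts of each gene.

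Ccl5 (ENSMUSG00000035042.3), a chemokine made mostly by T cells, natural killer cells and activated macrophages, followed the same order at far lower counts. Controls 1, 2 and 3 held 18, 37 and 1 counts, and overexpression tumours 1, 2 and 3 held 1, 3 and 1. Control 3 and all 3 overexpression tumours were thus at or under 3 counts, where levels cannot be ranked. Ccl5 did not pass the filter on low counts. Over the whole group, controls held 56 counts and overexpression tumours 5, a ratio per unit of depth of 10.3 with an interval of 4.17 to 33.0 that covers counting error only. In the edgeR fit with no filter Ccl5 reached a log2 fold change of -3.31 (standard error 1.06, adjusted p = 0.73), and it is counted among neither the 9 genes tested nor their medians.

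**Figure D1:**
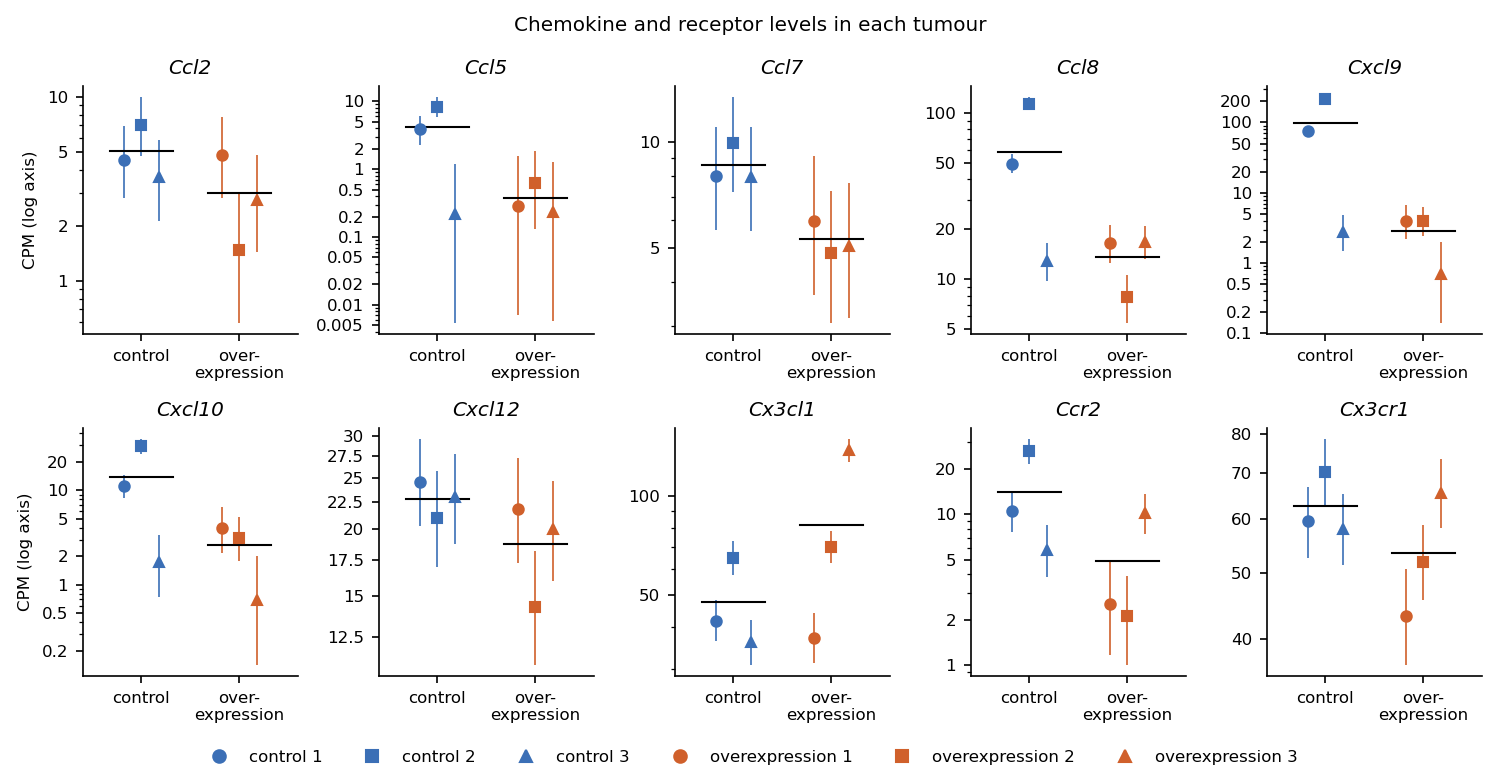
Level of each gene in CPM on a log axis, with 1 point per tumour (circle, square and triangle for tumours 1, 2 and 3), its 95% Poisson interval as a thin line and the group mean as a black bar. Controls 1 and 2 sit above every other tumour for Cxcl9, Cxcl10, Ccl5 and Ccl8, and with TMM scaling the groups lie apart for Ccl7 alone.

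The CC chemokines Ccl2, Ccl7 and Ccl8 are neighbours in one gene cluster, and CCL2 and CCL7 are the main ligands that bring CCR2-bearing monocytes into tissue. Ccl8 (ENSMUSG00000009185.3) had 230, 506 and 60 counts in controls 1, 2 and 3 (49.7, 114 and 12.9 CPM) and 58, 37 and 73.0 in overexpression tumours 1, 2 and 3 (16.5, 7.80 and 16.8 CPM). Controls 1 and 2 were again the highest, and with TMM scaling control 3 was lower than overexpression tumours 1 and 3. The counting interval of control 3 (9.84 to 16.6 CPM) overlapped those of both (12.5 to 21.3 and 13.2 to 21.1 CPM). Per library total, control 3 lay above overexpression tumour 1. Means were 59.0 ± 51.4 and 13.7 ± 5.10 CPM (SD, n = 3 each). The fitted log2 fold change was -2.11 (standard error 0.72, adjusted p = 0.70 in edgeR), and -1.20 without control 2.

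With TMM scaling, Ccl7 (ENSMUSG00000035373.3) was the only one of the 10 genes whose groups did not overlap. Per library total, it shared this with Ccl2 and Cxcl12. Its counts were 37, 44 and 37 in controls 1, 2 and 3 (8.0, 9.95 and 7.95 CPM) and 21, 23 and 22 in overexpression tumours 1, 2 and 3 (5.96, 4.85 and 5.06 CPM). Every control was above every overexpression tumour. With TMM scaling, 6.36% of all genes tested showed this pattern in this direction and 13.2% in either direction. The means of 8.63 ± 1.14 and 5.29 ± 0.593 CPM (SD, n = 3 each) gave a 1.63-fold lower fitted level in overexpression tumours, or -0.71 on the log2 scale (standard error 0.26, 95% interval -1.31 to -0.11). The adjusted p was 0.70 in edgeR. Unlike Cxcl9 and Ccl8, Ccl7 varied little within a group: its range was 1.25-fold among controls and 1.23-fold among overexpression tumours. Each library held 44 counts of it or fewer, and the counting interval of control 3, 5.60 to 11 CPM, overlapped that of overexpression tumour 1, 3.69 to 9.12 CPM.

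Ccl2 (ENSMUSG00000035385.6), the classical monocyte attractant, showed no such separation with TMM scaling. It had 21.2, 31.1 and 16.7 estimated counts in controls 1, 2 and 3 (4.54, 7.01 and 3.65 CPM) and 17, 7 and 11.6 in overexpression tumours 1, 2 and 3 (4.83, 1.48 and 2.76 CPM). Overexpression tumour 1 exceeded controls 1 and 3, though its counting interval of 2.81 to 7.73 CPM covered both. Per library total, overexpression tumour 1 lay below all controls and the groups did not overlap. The fitted log2 fold change was -0.77 (standard error 0.49, 95% interval -1.91 to 0.38, adjusted p = 0.72 in edgeR). Ccl2 and Cxcl10 are the 2 members whose estimates were not whole numbers (tolerance 0.01) in at least 1 library, which arises when reads are divided between features.

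**Figure D2:**
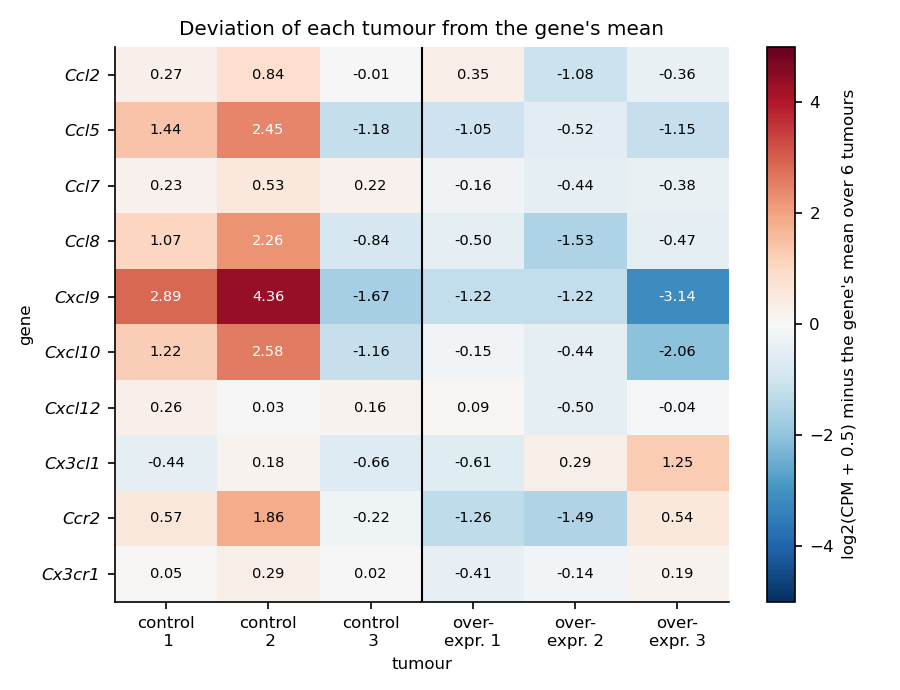
Deviation of each tumour from the gene's mean over the 6 tumours, as log2(CPM + 0.5), with genes in rows and tumours in columns and red above the mean. The red block of controls 1 and 2 spans Ccl5, Ccl8, Cxcl9 and Cxcl10, reaching 4.36 for Cxcl9 in control 2, while Cxcl12 and Cx3cr1 stay within 0.50 of their means.

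Ccr2 (ENSMUSG00000049103.15) encodes the receptor through which CCL2 and CCL7 mobilise classical monocytes from bone marrow. It had 48, 115 and 27 counts in controls 1, 2 and 3 (10.4, 26.0 and 5.80 CPM) and 9, 10 and 44.0 in overexpression tumours 1, 2 and 3 (2.56, 2.11 and 10.1 CPM). Overexpression tumours 1 and 2 were below all controls, but overexpression tumour 3 stood beside control 1 and above control 3. Means were 14.1 ± 10.6 and 4.93 ± 4.50 CPM (SD, n = 3 each). The fitted log2 fold change was -1.50 (standard error 0.73, 95% interval -3.21 to 0.21, adjusted p = 0.70 in edgeR). This value moved from -2.59 without overexpression tumour 3 to -0.70 without control 2.

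Cx3cr1 (ENSMUSG00000052336.9) stayed within a narrower range. Its counts were 275, 311 and 270 in controls 1, 2 and 3 (59.5, 70.3 and 58.0 CPM) and 152, 246 and 285 in overexpression tumours 1, 2 and 3 (43.2, 51.8 and 65.6 CPM). The groups overlapped through overexpression tumour 3, and edgeR gave a log2 fold change of -0.22 (standard error 0.20, 95% interval -0.69 to 0.24, adjusted p = 0.79). The interval reaches to both sides of 0 and ends short of the value fitted for Ccr2. The interval of Ccr2, -3.21 to 0.21, covers the value fitted for Cx3cr1. Whether the receptors differ from each other was not tested.

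Set against each other, the receptors gave a ratio of Ccr2 to Cx3cr1 counts of 0.175, 0.370 and 0.100 in controls 1, 2 and 3. The ratio was 0.0592, 0.0407 and 0.154 in overexpression tumours 1, 2 and 3. Control 2 thus had the most Ccr2 for its Cx3cr1 and overexpression tumour 2 the least. The groups overlapped, with overexpression tumour 3 between controls 1 and 3. In overexpression tumour 3, Ccr2 was high relative to its group while Cxcl9 and Cxcl10 held 3 counts each, so high Ccr2 came with high CXCR3 ligand in controls 1 and 2 but not in this tumour.

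Cx3cl1 (ENSMUSG00000031778.14), the membrane-anchored ligand of CX3CR1 that endothelial and epithelial cells make, was the only member with a positive fold change. It had 194, 287 and 168 counts in controls 1, 2 and 3 (41.9, 64.9 and 36.1 CPM) and 131, 332 and 594 in overexpression tumours 1, 2 and 3 (37.2, 70.0 and 137 CPM). Overexpression tumour 3 was the highest of all, overexpression tumour 2 was near control 2, and with TMM scaling overexpression tumour 1 was within the range of the controls. Per library total, overexpression tumour 1 was the lowest of all tumours. Means were 47.7 ± 15.2 and 81.3 ± 50.7 CPM (SD, n = 3 each), and edgeR gave a log2 fold change of 0.77 (standard error 0.45, 95% interval -0.28 to 1.83, adjusted p = 0.71). Without overexpression tumour 3 it was 0.17. Relative to its receptor, the Cx3cl1 to Cx3cr1 count ratio was 0.705, 0.923 and 0.622 in controls 1, 2 and 3 and 0.862, 1.35 and 2.08 in overexpression tumours 1, 2 and 3, where the first lay below control 2.

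Cxcl12 (ENSMUSG00000061353.12), the ligand of CXCR4 that fibroblasts and other stromal cells make constitutively, varied least among the chemokines of the control tumours. Its levels were 24.6, 21.0 and 23.0 CPM in controls 1, 2 and 3 and 21.9, 14.3 and 20.0 CPM in overexpression tumours 1, 2 and 3. With TMM scaling the groups overlapped, with overexpression tumour 2 below the rest. Per library total the groups did not overlap. In edgeR its log2 fold change was -0.29 (standard error 0.22, 95% interval -0.79 to 0.21, adjusted p = 0.75).

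**Figure D3:**
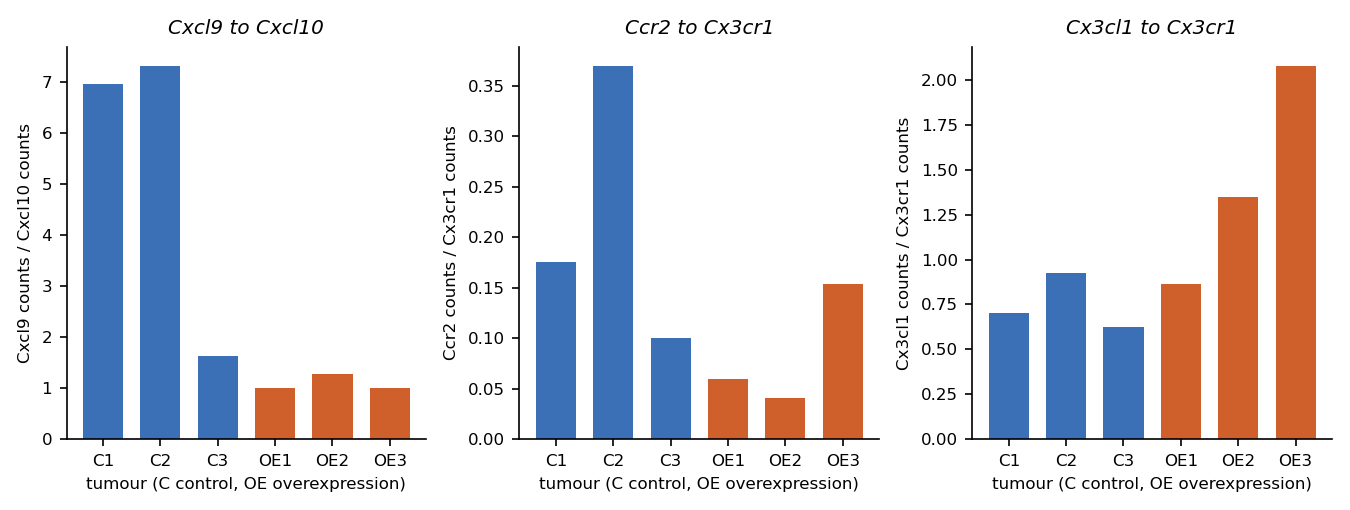
Ratio of counts of 2 genes within each tumour, on linear axes starting at 0 (C, control in blue; OE, overexpression in orange). Cxcl9 to Cxcl10 is about 7 in controls 1 and 2 and at most 1.62 elsewhere, Ccr2 to Cx3cr1 runs from 0.0407 to 0.370, and Cx3cl1 to Cx3cr1 from 0.622 to 2.08.

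Over the list, 8 of the 9 genes tested had a fitted log2 fold change below 0, against 49.4% of all genes tested, and 4 of the 9 had one of -1 or lower, against 2.29%. Their median was -0.77, beside 0.01 over all genes. The list was chosen with earlier results of these data known. Its genes were also not chosen independently of each other and share tumours, so the counts describe the list and are not a test of it. Scaling by library totals alone moved the median of all genes by -0.22. The same 8 genes stayed below 0, but a downward shift could hardly change that, so it is no check of their direction.

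**Figure D4:**
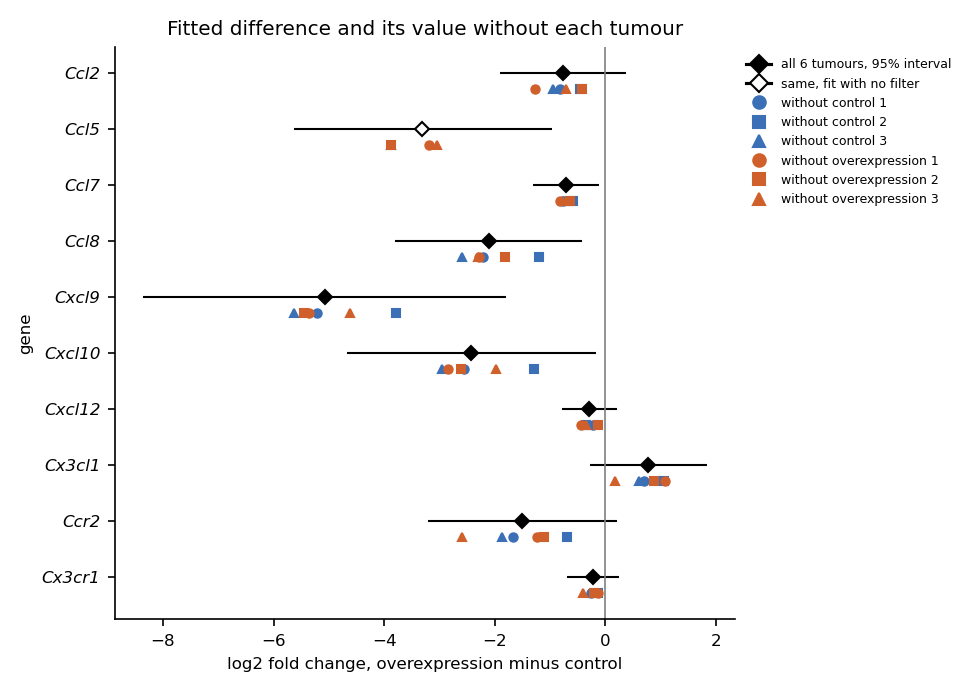
Fitted log2 fold change of each gene (overexpression minus control), with its 95% interval as a line, all 6 tumours as a black diamond (open for Ccl5, from the fit with no filter) and the values without each tumour as coloured symbols. Leaving out control 2 (blue square) brings Cxcl9 to -3.78, Cxcl10 to -1.29 and Ccr2 to -0.70, and leaving out overexpression tumour 3 (orange triangle) brings Cx3cl1 to 0.17.

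Control tumours, which differed in no labelled respect, spread widely in some of these genes and narrowly in others. The highest control exceeded the lowest by 76.4-fold for Cxcl9, 17.0-fold for Cxcl10, 8.88-fold for Ccl8 and 4.48-fold for Ccr2, with counts under 3 set to 3. Over all genes tested the median range among controls was 1.32-fold. A larger range than that of Cxcl9 was found in 3 of the 12637 genes, larger than that of Cxcl10 in 55 and larger than that of Ccl8 in 138. Ccl7, Cxcl12 and Cx3cr1 ranged less than the median gene, at 1.25-fold, 1.17-fold and 1.21-fold. Among overexpression tumours the widest ranges were 5.80-fold for Cxcl9 and 5.76-fold for Cxcl10, where the median gene ranged 1.67-fold and 451 genes exceeded Cxcl9.

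**Figure D5:**
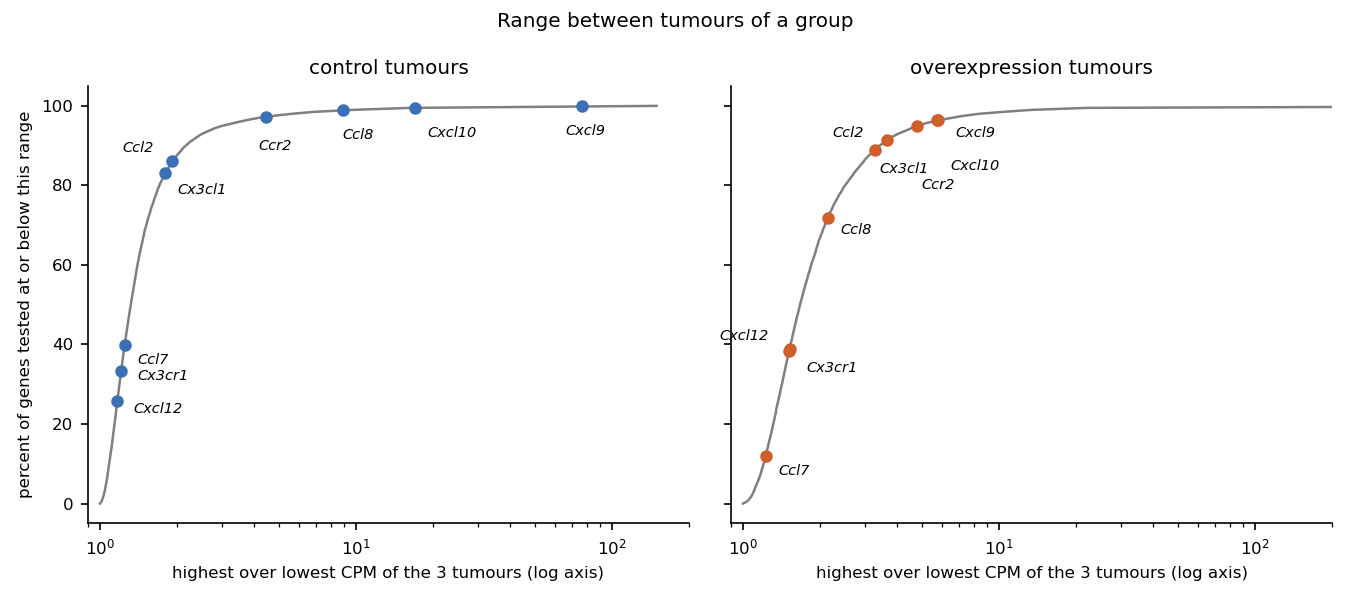
Ratio of the highest to the lowest CPM among the 3 tumours of a group (log axis) against the percent of the 12637 genes tested at or below it, with the grey curve for all genes and points for the 9 members tested. In controls Cxcl9, Cxcl10, Ccl8 and Ccr2 lie at the far right of the curve, and in overexpression tumours Cxcl9 and Cxcl10 lie at 5.80 and 5.76.

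Control 2 was the highest of the 6 tumours for 8 of the 10 genes, whereas 12.5% of all genes tested were highest there. The controls ranked 2, 1, 3 from high to low for 9 of the 10 genes, Cxcl12 being the exception, and 25.1% of all genes tested had that order. For Ccl7 and Cx3cr1 controls 1 and 3 were too close to be ranked, at 8.0 and 7.95 CPM and at 59.5 and 58.0 CPM. Counting intervals of controls 1 and 3 also overlapped for Ccl2, Cx3cl1 and Ccr2. Those of controls 1 and 2 overlapped for Ccl2, Ccl5, Ccl7 and Cx3cr1. Only for Cxcl9, Cxcl10 and Ccl8 did no control intervals overlap among the genes with this order. Overexpression tumour 2 was the lowest for 5 of the 10 (Ccl2, Ccl7, Ccl8, Cxcl12 and Ccr2), against 13.9% of all genes. For Ccl7 and Ccr2 it differed from overexpression tumour 1 by 2 counts or fewer. Per library total, overexpression tumour 2 was the lowest for 3 of the 10. Overexpression tumour 1 was then the lowest for 5 (Ccl5, Ccl7, Cx3cl1, Ccr2 and Cx3cr1), against 1 with TMM scaling. Which tumour was lowest thus changed with the scaling, and the share of all genes is given here with TMM scaling only.

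Of 5 pairs of genes examined across the tumours, Cxcl9 with Cxcl10, given above, passed the adjustment with TMM scaling by r but not by rho. With library totals only, its rho passed too (exact permutation p = 0.017, adjusted 0.04). None of the other 4 pairs passed with TMM scaling. Ccl2 and Ccl7 gave Pearson's r = 0.83 (exact permutation p = 0.032, adjusted 0.08) and Spearman's rho = 0.83 (exact permutation p = 0.058, adjusted 0.10) over 6 tumours. Without the 2 tumours farthest from the median of Ccl2, r was 0.50. Ccl7 and Ccr2 gave r = 0.71 (exact permutation p = 0.12, adjusted 0.19) and rho = 0.83 (exact permutation p = 0.058, adjusted 0.10), and r = 0.10 without the farthest 2. With library totals only, this pair had rho = 0.94 (exact permutation p = 0.017, adjusted 0.04), which passes, and r = 0.80 (exact permutation p = 0.071, adjusted 0.09), so the scaling decides that call. Ccl2 and Ccr2 gave r = 0.65 (exact permutation p = 0.15, adjusted 0.19) and rho = 0.60 (exact permutation p = 0.24, adjusted 0.30), and r was -0.55 without the farthest 2. With TMM scaling these 3 values of r depended on the tumours at the ends of the range. With library totals only, r without the farthest 2 was 0.75 for Ccl2 with Ccl7 (0.79 over 6 tumours), 0.49 for Ccl7 with Ccr2 and 0.15 for Ccl2 with Ccr2. Cx3cl1 and Cx3cr1 gave r = 0.51 (exact permutation p = 0.32, adjusted 0.32) and rho = 0.43 (exact permutation p = 0.42, adjusted 0.42), and r = 0.52 without the farthest 2, but with library totals only r went from 0.61 to -0.12. All of these span both groups, so a difference between groups enters them.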

How the data were processed

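The table that the authors deposited holds estimated counts per mouse gene, unscaled, in a column for each tumour, as its header shows. Its name points to salmon, for which no version or annotation release is given in the sources used here. The submitters' processing notes name the build mm10 and, with no role for each, edgeR, DESeq2, featureCounts 2.0.6, HISAT2 2.2.1 and Trimmomatic 0.39. All 6 columns matched a tumour by name.

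Estimated counts were rounded and analysed in R 4.3.3 with edgeR 4.0.16: filterByExpr at its defaults (12637 genes, 99.5% of counts), TMM, a robust quasi-likelihood fit with group only, and Benjamini-Hochberg adjustment over all genes tested (threshold 0.05). Standard errors are |log2 fold change| over √F. Correlations used log2 CPM with a prior count of 2 and exact permutation over 720 orders, two-sided, adjusted over 5 pairs. Poisson intervals are at 95% and cover counting error only. Alternatives used DESeq2 1.42.0, limma-voom (limma 3.58.1), other scalings and filters, a replicate block and leaving out each tumour. No 2 libraries were duplicates: the closest, controls 1 and 3, differed by 3.88 times the counting variance per gene. The fit was tested on a simulated data set, where it called 84 genes, 10 of them falsely. It found 68% of the 4-fold changes and 7.2% of the 2-fold changes, so in such genes a change of 2-fold or less would mostly be missed. The changed genes were drawn at random from all genes tested. These shares therefore do not apply to members that varied far more between tumours. Cxcl9 ranged 76.4-fold among controls and was not called at a fitted 33.7-fold difference.

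All 10 members were to be named. Members, lists and pairs were chosen with earlier results of these data known; count ratios, ranges and tumour orders were added after the values were seen. Other chemokine genes and cell type markers, listed by symbol, were not analysed here because no mouse ID could be matched to a symbol, and no mouse sequence was used here.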

Additional observations from a re-analysis of the deposited data

How the results depend on the processing

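No member passed the threshold under any of the 14 alternatives, and none changed direction wherever it was fitted. Adjusted p ranged from 0.15 to 1 for Cxcl9 (log2 fold change -5.64 to -3.78), from 0.27 to 1 for Ccl8 (-2.59 to -1.20), from 0.34 to 1 for Cxcl10 (-2.95 to -1.29), from 0.26 to 1 for Ccl7 (-0.95 to -0.59) and from 0.47 to 1 for Ccr2 (-2.59 to -0.70). Members at an unadjusted p below 0.05, 4 in edgeR, numbered 5 with DESeq2 (3.84% of all genes with a p), 5 with library totals only (5.53%), 2 with no filter (5.67%), 2 with the replicate block (3.28%) and 1 with limma-voom (5.59%), where it was Ccl7. They numbered 2 without control 1 (2.51% of all genes), 1 without control 2 (4.39%) and 5 without control 3 (3.31%). Without overexpression tumours 1, 2 and 3 they numbered 5 (4.69%; Cx3cl1, which is positive, among them), 2 of 10 (20.5%) and 3 (7.30%). Ccl2 was not tested with a mean of at least 5 CPM, and Ccl5 was tested only where the filter let it in.

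Genes called over the whole table numbered 2 (1 higher, 1 lower), 4 with library totals only (1 higher, 3 lower), 14 with no filter, 29 with DESeq2 on all rows, 7 with limma-voom and 0 with the replicate block (414 at an unadjusted p below 0.05), and leaving out 1 tumour gave 0 to 14; the cause was not tested. Equal replicate numbers did not pair tumours in the labels, and same-numbered deviations correlated at -0.09, -0.34 and -0.10; the replicate block changed no call of a member. Without the 2 farthest tumours r was 0.50 for Ccl2 with Ccl7, 0.10 for Ccl7 with Ccr2 and -0.55 for Ccl2 with Ccr2, from 4 tumours each, and with library totals only, a combination added after seeing the data, 0.75, 0.49 and 0.15, with -0.12 for Cx3cl1 with Cx3cr1. Depth limited Ccl5 and the low tumours of Cxcl9 and Cxcl10, which held 3 counts or fewer in some libraries.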

Other observations

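Among the 12637 genes tested, 119 had a range of 10-fold or more among controls, with counts under 3 set to 3; Cxcl9 and Cxcl10 are members of that set. Of these 119, 29 ranked controls 2, 1, 3 from high to low as Cxcl9 and Cxcl10 did, and the other 5 orders held 17 to 20 genes each. In 20 of the 29 all overexpression tumours lay below control 1, the middle control, whereas 1 to 6 genes of each other order had all overexpression tumours below its own middle control. These genes could not be named here, and this count was made after the values were seen.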
